A study of Mus musculus with 175 samples.

Results

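The genes described here are 47 mitosis genes, listed by name with earlier results of these data known, among 49585 mouse features counted in single fetal liver progenitors. All 47 were found in the count table under their own symbol and all had a mean count of at least 1 read per cell, as did 11860 features in all. The cells were megakaryocyte-erythroid progenitors (MEPs) and common myeloid progenitors (CMPs) sorted from mouse fetal liver at 14.5 days post fertilization (E14.5). Each cell was 1 Smart-Seq2 library, and 172 of 175 cells passed the quality limits of the study. These were 56 P2- and 47 P2+ MEPs, with 27 P2- and 42 P2+ CMPs.

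P2- and P2+ give the state of the P2-hCD4 reporter, a human CD4 sequence that marks activity of the P2 promoter of Runx1, a transcription factor of blood development. The extraction notes write the genotype as Runx1 P1-GFP::P2-hCD4/+, with a second reporter for the P1 promoter, while the genotype label reads Runx1 P2-GFP::P2-hCD4/+. The strain was C57BL/6 crossed with ICR for every group, and both MEPs and CMPs came from the CD41- CD150+ gate of the study. The labels call the CMPs low and high, which were read as P2- and P2+. The livers of 2 litters were pooled before sorting, so each population is 1 sample, cells of a population are not replicates, and no p-value is given for any difference between populations. Intervals are at 95% and cover counting error only. Where 4 values stand in a row, the first pair is for MEPs and the second for CMPs, with P2- before P2+ in each pair. The 47 genes are set against all genes that were read, as a description.

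Mitosis is driven by the kinase CDK1 with its cyclin partners, which condense the chromosomes and build the spindle. The spindle checkpoint holds the anaphase-promoting complex (APC/C) until every kinetochore is attached, and the APC/C with CDC20 then has securin and the cyclins destroyed so that sister chromatids part. Transcripts of most of these genes accumulate in G2 and M and are low in G1, through the DREAM, B-MYB-MuvB and FOXM1 regulators acting on CCAAT boxes, bound by NF-Y, and on cell cycle genes homology region (CHR) elements. Fetal liver progenitors divide rapidly, so a population can hold cells of every phase. The phase of single cells was not measured here.

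The promoters of 5 members are shown first as examples with and without the elements known for this gene class, picked with their sequences in view. RefSeq promoter sequences (GRCm38.p6) were matched by symbol for 39 of the 47 genes, in 42 entries. Printed are the 120 bases before the transcription start, 5′ to 3′ on the strand of the gene, with capitals on each CCAAT box (CCAAT, or ATTGG on the other strand) and each CHR element (TTTGAA or TTCGAA, or TTCAAA on the other strand). Ube2c, the APC/C ubiquitin-conjugating enzyme, lies at chr2:164769809-164769928 (+). Cdk1 lies at chr10:69352913-69353032 (-) and Top2a, the chromosome-untangling topoisomerase, at chr11:99024190-99024309 (-). Kif11, the kinesin that pushes the spindle poles apart, lies at chr19:37376262-37376381 (+). Mad2l1, the checkpoint protein MAD2, lies at chr6:66535101-66535220 (+).
Ube2c: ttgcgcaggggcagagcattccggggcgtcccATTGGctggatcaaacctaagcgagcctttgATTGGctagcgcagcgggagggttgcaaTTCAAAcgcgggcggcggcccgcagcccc
Cdk1: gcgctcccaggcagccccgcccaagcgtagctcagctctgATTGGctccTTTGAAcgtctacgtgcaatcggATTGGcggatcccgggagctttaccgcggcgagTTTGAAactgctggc
Top2a: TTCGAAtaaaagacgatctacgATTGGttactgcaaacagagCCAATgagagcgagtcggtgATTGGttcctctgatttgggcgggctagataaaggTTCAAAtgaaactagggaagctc
Kif11: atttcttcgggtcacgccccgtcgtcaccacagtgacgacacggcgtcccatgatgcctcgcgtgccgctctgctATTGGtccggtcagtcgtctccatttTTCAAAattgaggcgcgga
Mad2l1: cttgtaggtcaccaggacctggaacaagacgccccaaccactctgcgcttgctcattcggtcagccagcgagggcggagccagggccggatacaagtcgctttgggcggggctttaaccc

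Ube2c, Cdk1, Top2a and Kif11 each hold both kinds of element within these 120 bases, and Mad2l1 holds neither in the 250 bases before and 50 bases after its RefSeq start. The GENCODE start of Mad2l1 lies 169 bases downstream of the RefSeq one, and the bases just before it were not searched. In 32 of 42 entries the 2 starts lay within 50 bases of each other, and for 25 of 39 genes the first 30 bases after the RefSeq start were found in a GENCODE transcript of the gene. Of the 5 members whose levels followed the others most closely from cell to cell, 4 have an entry, and Ube2c holds both elements before the start while Plk1, Cenpf and Hmmr hold CCAAT alone there. Of the 5 that followed them least, Ncapg, Ccnb2 and Ncapd2 hold both elements before it and Ncaph and Mad2l1 hold neither. In the 50 bases after the start, Plk1, Cenpf and Hmmr each hold TTTGAA, at bases 31, 3 and 9, and Ncaph holds no CHR element. In the 250 bases before the start, CCAAT on either strand was present in 33 of 42 member promoters (78.6%) and in 33.8% of all 32851 promoters. A pair of CCAAT boxes or more was present in 50% of member promoters and in 10.1% of all. CHR letters were present before the start in 42.9% of member promoters against 17.1% of all. With the 50 bases after the start included, the CHR share was 81.0% against 19.2%, and 73.8% of member promoters against 7.52% of all held both elements. The 2 CHR spellings cannot match the same 6 letters, TTCGAA reads alike on both strands and was counted once, and a CCAAT and a CHR match may share letters.

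**Figure D1:**
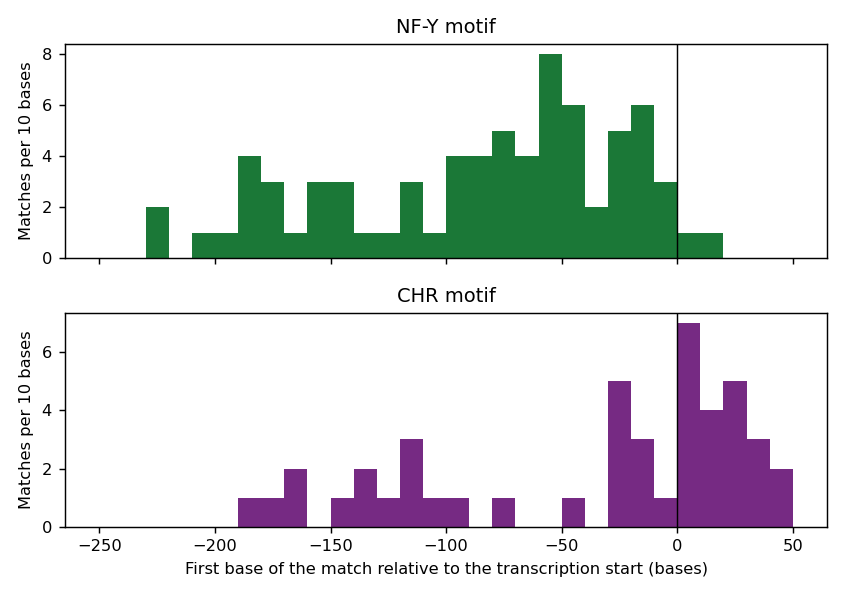
Number of CCAAT box (NF-Y motif, upper panel) and CHR motif (lower panel) matches per 10 bases along the 42 promoters of mitosis genes, by distance in bases of the first base of the match from the transcription start (vertical line). CCAAT matches had their median 71 bases before the start and CHR matches 15 bases before it, and 21 of 45 CHR matches lay after the start. Sites in overlapping entries of Bub3, Ect2 and Prc1 were counted in each entry.

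Most matches lay near the start. Bub3, Ect2 and Prc1 have overlapping entries, and sites in the overlap were counted in each entry. Of 73 CCAAT matches, 47 lay in the 100 bases before the start. Of 45 CHR matches, 31 lay within 50 bases of the start on either side. These are matches of letters, and binding was not measured.

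All 47 genes together took nearly the same share of the reads in the 4 populations. For each population, the reads of a gene in all cells were added up and expressed per 1000000 reads on mouse genes (CPM). In MEPs the summed level was 7099 CPM (7069 to 7129) without the reporter and 6310 CPM (6282 to 6338) with it. In CMPs it was 7029 CPM (6990 to 7067) without and 6073 CPM (6047 to 6098) with the reporter. On the log2 scale the ratio of P2+ to P2- cells was -0.17 (-0.18 to -0.16) in MEPs and -0.21 (-0.22 to -0.20) in CMPs. On this scale P2+ cells were lower in both, although per spike-in (ERCC) read the CMP ratio was 0.12 while the median of all genes moved by 0.33.

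The populations were more different in how widely single cells were spread. Summed over the members, single P2- MEPs had a lowest level of 3603, a median of 6467 and a highest level of 12268 CPM. In P2+ MEPs these were 3303, 5907 and 12313 CPM. Among the MEPs the highest cell thus had less than 4 times the level of the lowest, with a ratio of 3.40 in P2- and 3.73 in P2+ cells. In P2- CMPs the lowest cell had 732, the median cell 5883 and the highest 16615 CPM. P2+ CMPs ran from 1135 through 4679 to 17101 CPM. In CPM the CMPs therefore reached both lower and higher than any MEP, with a highest over lowest ratio of 22.7 in P2- and 15.1 in P2+ cells. Per ERCC read no CMP lay above the highest MEP. On that scale the highest P2- MEP had 1.36, the highest P2- CMP 0.99 and the highest P2+ CMP 1.33 member reads.

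**Figure D2:**
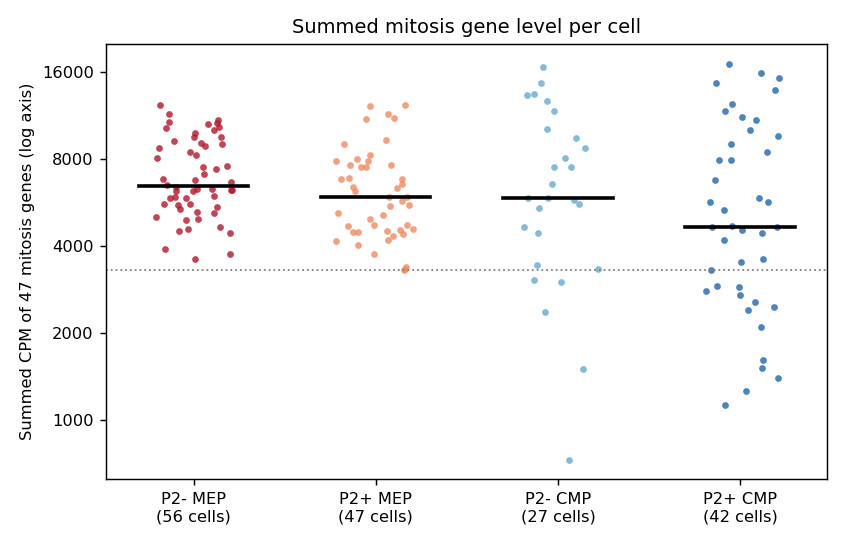
Summed CPM of the 47 mitosis genes in each of 172 cells (points, log axis) by population, with the median (bar) and the level of the lowest MEP (dotted line, 3303 CPM). The MEPs sit between 3303 and 12313 CPM, while 5 of 27 P2- CMPs and 13 of 42 P2+ CMPs lie below the line.

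The coefficient of variation over cells was 0.31 in P2- and 0.37 in P2+ MEPs, against 0.59 in P2- and 0.70 in P2+ CMPs. The ratio of the upper to the lower quartile was 1.63, 1.68, 2.49 and 3.35 in the same order. Below the lowest MEP lay 5 of 27 P2- CMPs (18.5%, Clopper-Pearson 6.30 to 38.1%) and 13 of 42 P2+ CMPs (30.95%, 17.6 to 47.1%). Above the highest MEP lay 5 of 27 P2- CMPs and 6 of 42 P2+ CMPs (14.3%). Within 10% of the level of the lowest MEP lay 4 P2- CMPs, 3 P2+ CMPs, 1 P2- MEP and 3 P2+ MEPs. Thinning each cell to 100000 reads left the counts below the lowest MEP at 5 and 13, as did leaving out 1 P2- CMP whose subtype label reads MEP. Per ERCC read they were 2 and 4, where the ERCC share ran from 0.70% to 5.05% of counted reads, and the coefficients of variation were 0.52, 0.65, 0.68 and 0.82. The quartile ratios per ERCC read were 2.20, 2.06, 2.25 and 3.43, so P2- MEPs and P2- CMPs were close.

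The wider spread of CMPs was present in each of 9 roles in mitosis into which the members were sorted. The coefficient of variation of the summed level was higher in P2- CMPs than in P2- MEPs in 9 of 9 roles, and higher in P2+ CMPs than in P2+ MEPs in 9 of 9. It was also higher in P2+ than in P2- MEPs in 9 of 9 roles, and in P2+ than in P2- CMPs in 8 of 9. Other genes of the G2 and M phases, 35 in a list that shares no gene with the members, had coefficients of 0.28, 0.33, 0.48 and 0.60 in the 4 populations, with 3 P2- CMPs and 7 P2+ CMPs below the lowest MEP. The 17 APC/C subunits and regulators, most of which are made throughout the cycle, had 0.18, 0.23, 0.25 and 0.24, and 0 CMPs below the lowest MEP. The 10 genes of cohesin and condensin II had 0.24, 0.25, 0.23 and 0.24, and 4 P2+ CMPs below the lowest MEP. The 14 entry and exit regulators had 0.17, 0.26, 0.33 and 0.33, and the 16 MuvB, FoxM1, E2F and NF-Y regulators 0.22, 0.28, 0.36 and 0.26, each with 2 P2- CMPs below the lowest MEP.

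Cells with more mitosis reads tended to have fewer reads of S phase genes, which copy the DNA before mitosis. Over 33 S phase genes the summed level had a Spearman rho with the mitosis level of -0.73 in 56 P2- and -0.69 in 47 P2+ MEPs. It was -0.58 in 27 P2- CMPs and -0.49 in 42 P2+ CMPs. Both sums come from the same library and share 1 total, and after thinning the 4 values lay between -0.70 and -0.49. S phase levels were less spread than mitosis levels, with coefficients of variation of 0.24, 0.25, 0.37 and 0.32. Below the lowest MEP in S phase level (3122 CPM) lay 2 P2- CMPs and 3 P2+ CMPs, and 1 P2- CMP was below it in both sums. That cell had 732 CPM of mitosis genes and 2043 CPM of S phase genes. All other CMPs of low mitosis level had S phase reads within or above the range of the MEPs.

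**Figure D3:**
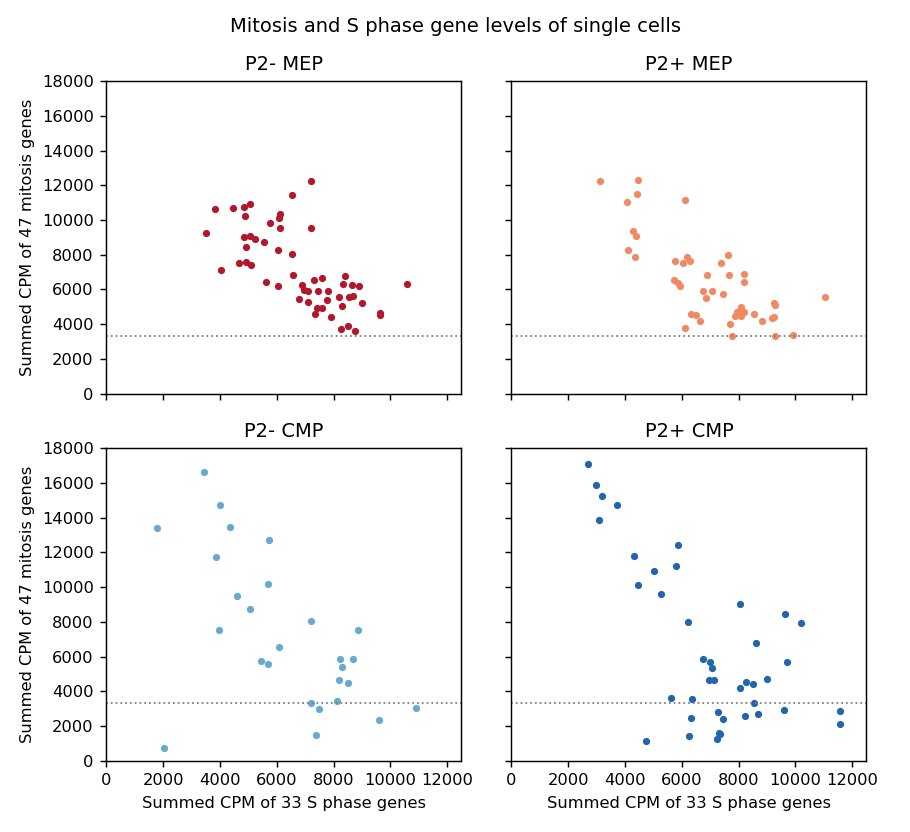
Summed CPM of the 47 mitosis genes (vertical axis) against summed CPM of 33 S phase genes (horizontal axis) in each cell, 1 panel per population, with the lowest MEP as a dotted line (3303 CPM). Points run from upper left to lower right in all 4 panels, and in the CMP panels they reach 16615 and 17101 CPM and below the line.

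The mitosis level also went with the number of genes read. At 100000 reads per cell, rho with the number of genes detected was 0.59, 0.43, 0.66 and 0.57 in the 4 populations. With the ERCC share rho was -0.39, -0.37, -0.25 and -0.48, so cells with more mitosis reads tended to have more mouse RNA per spike-in. With the depth of a cell rho lay between -0.27 and -0.09. The part of these measures in the spread was not tested.

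A cell at 100000 reads had reads of a median of 39 of the 47 members in P2- MEPs, from 23 to 46. Among P2+ MEPs the median was 33 (20 to 44), among P2- CMPs 35 (9 to 47) and among P2+ CMPs 34.5 (12 to 47). Fewer members than in any MEP were read in 4 P2- CMPs and 6 P2+ CMPs. Single members were read in a median of 83.9%, 72.3%, 74.1% and 69.0% of cells in the 4 populations. Over the 5834 genes whose mean level over cells lies within the range of the members (24.3 to 478 CPM), these medians were 80.4%, 70.2%, 70.4% and 73.8%. Of the members, 36 of 47 (76.6%) were read most often in P2- MEPs, as were 49.7% of the genes of like level. Plk1 was read in 50 of 56 P2- MEPs (89.3%) and in 18 of 42 P2+ CMPs (42.9%), and its pooled level in the former was 1.71 times that in the latter. Hmmr, a spindle assembly factor, was read in 53 of 56 P2- MEPs and in 21 of 42 P2+ CMPs.

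**Figure D4:**
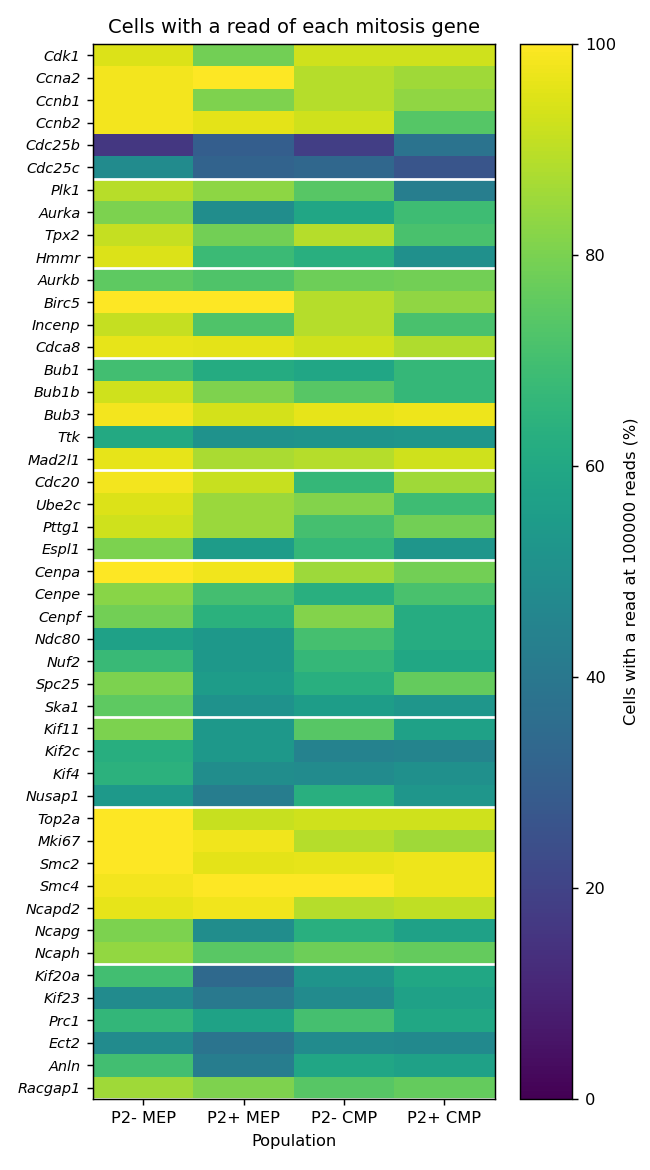
Percent of cells with at least 1 read of each mitosis gene after thinning to 100000 reads, by population (columns), with genes in rows grouped by role (white lines). Ccna2, Birc5, Top2a, Smc2 and Smc4 were read in most cells of every population, and Cdc25b in 16.1% of P2- MEPs and 38.1% of P2+ CMPs.

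Between P2+ and P2- cells the pooled level of most members differed by less than 1.5-fold. A member was counted as higher or lower where its pooled CPM differed by at least 1.5-fold. At 2-fold, 1 member was higher in P2+ MEPs (15.3% of all genes) and 2 were lower (6.68%), and 0 were higher (9.81%) or lower (9.36%) in P2+ CMPs. At 1.5-fold, 1 of 47 members in MEPs was higher in P2+ cells, where 24.5% of all genes tested were, and 8 of 47 (17.02%) were lower, where 13.1% were. In CMPs 0 of 47 were higher in P2+ cells (17.1% of all) and 5 of 47 (10.6%) were lower (18.2% of all). Genes with few reads pass the limit more often. Among the 5834 genes within the range of the members, 13.4% were higher and 7.23% lower in P2+ MEPs, and 7.13% were higher and 10.7% lower in P2+ CMPs. The members' median level was 113 CPM and that of these genes 62.1 CPM. In pooled CPM the share of members lower in P2+ MEPs was above both backgrounds at 1.5-fold, but at 2-fold it was below that of all genes (4.26% against 6.68%). The share lower in P2+ CMPs was near that of genes of like level. Per ERCC read, a scale that moved all genes by -0.62 in MEPs and 0.33 in CMPs, 35 members (74.5%) were lower in P2+ MEPs, as were 52.9% of the genes of like level. In P2+ CMPs 6 were higher (12.8% against 22.7%) and 1 lower (2.13% against 3.63%) on that scale. As medians over cells 22 members (46.8%) were lower in P2+ MEPs, as were 30.97% of the genes of like level. In P2+ CMPs 8 were higher (17.02% against 23.6%) and 13 lower (27.7% against 15.7%) by medians.

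The median log2 ratio of the members was -0.16 in MEPs and -0.14 in CMPs, against 0.05 and -0.02 for all genes tested. A ratio below 0 was found for 32 of 47 members in each cell type (68.1%), where 45.4% of all genes were below 0 in MEPs and 51.6% in CMPs. Per ERCC read, a scale that moved all genes, the sign changed for 14 of 47 members in MEPs and 15 of 47 in CMPs. From the lowest to the highest population, 19 of 47 members stayed within 1.5-fold (40.4%), as did 38.2% of the genes of like level and 26.8% of all genes read in every population. Steadiest were Smc2 at 1.09-fold and Bub1 at 1.12-fold. Over 2-fold lay 7 members, namely Aurka, Hmmr, Nuf2, Kif23, Kif11, Kif20a and Cdc25b (14.9%), against 28.01% of the genes of like level and 46.9% of all.

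**Figure D5:**
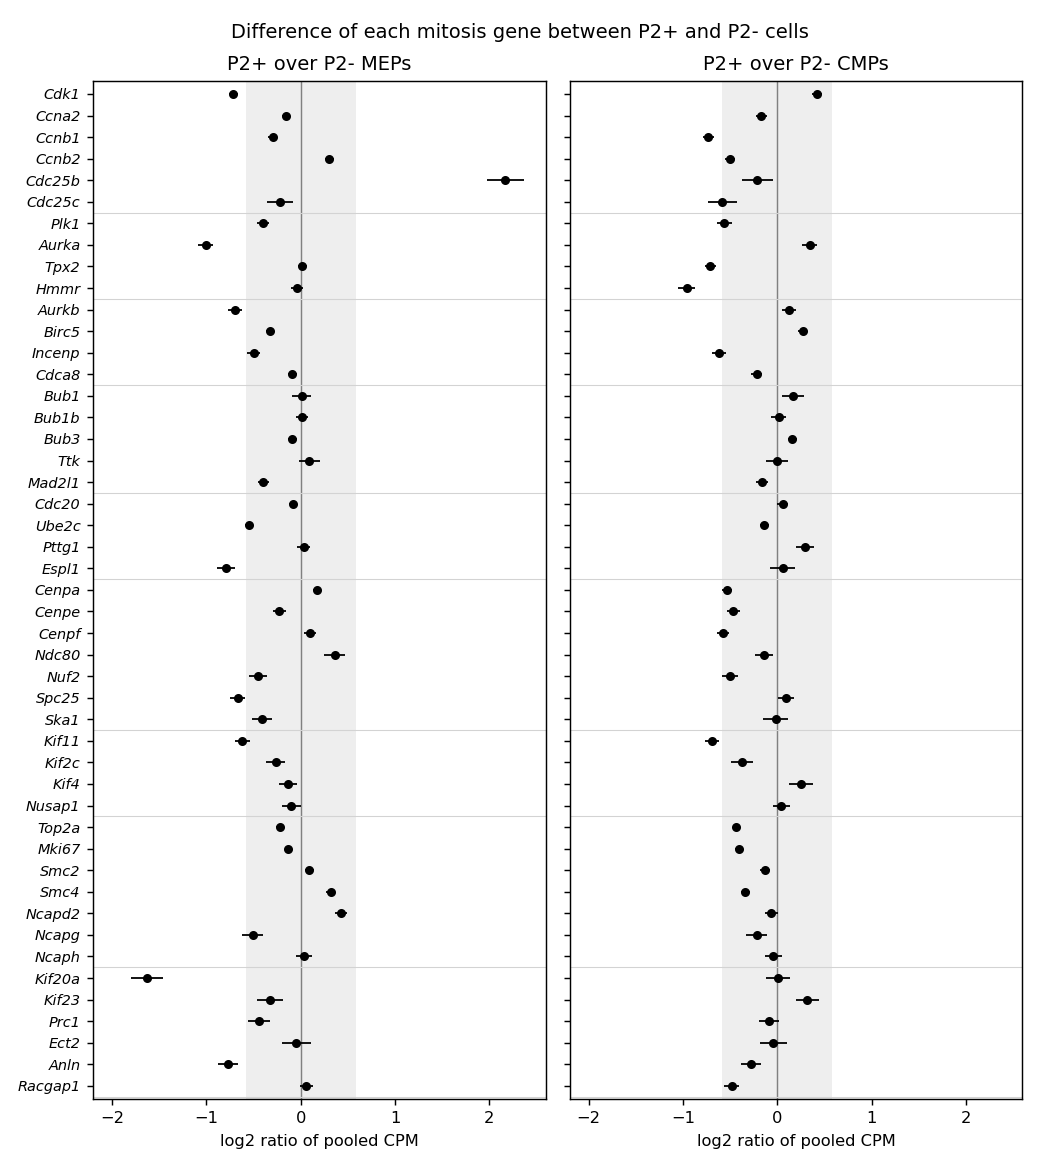
Log2 ratio of pooled CPM of each mitosis gene, P2+ over P2-, in MEPs (left) and CMPs (right), with 95% counting intervals (lines), genes grouped by role and the 1.5-fold range shaded. In MEPs Cdc25b stands to the right at 2.16 and Kif20a to the left at -1.63, while in CMPs all members lie between -0.96 and 0.42.

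Of the kinase and cyclins that start mitosis, Cdk1 had 263.1, 160, 233.5 and 312.8 CPM in the 4 populations. Single cells had a lowest, median and highest level of 0, 253.2 and 899 CPM among P2- MEPs and of 0, 107 and 560 CPM among P2+ MEPs. Among P2- CMPs these were 0.86, 214.98 and 858 CPM, and among P2+ CMPs 0, 270 and 1015 CPM. The cells of the 4 populations overlapped over most of this range. P2+ differed from P2- cells by a log2 ratio of -0.71 (-0.77 to -0.66) in MEPs and 0.42 (0.37 to 0.47) in CMPs, so the direction was opposite. Ccnb1, the cyclin B1 that activates CDK1, had 254.6, 207, 229.02 and 138 CPM in the same order. Its cells had medians of 228.99, 190, 126 and 66.1 CPM and reached 1082 CPM in P2- CMPs, where 1 cell gave 20.4% of its reads. Its log2 ratio was -0.30 in MEPs and -0.73 (-0.79 to -0.67) in CMPs, where it was under 1.5-fold with equal weight for every cell (-0.58). Ccnb2, the other B cyclin, was 0.30 higher in P2+ MEPs and 0.50 lower in P2+ CMPs on the log2 scale, with 190, 234.3, 242.3 and 171 CPM in the same order. Ccna2, the cyclin A2 of S phase and mitotic entry, had 312.2, 280, 207 and 184 CPM, higher in both kinds of MEP than in both kinds of CMP.

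Cdc25b, a phosphatase that switches CDK1 on, was the only member higher by 1.5-fold in P2+ MEPs. It was also one of the least read, with 8.53 CPM (7.52 to 9.63) in the P2- and 38.2 CPM (36.1 to 40.4) in the P2+ MEPs, and 26.6 CPM in the P2- and 22.97 CPM in the P2+ CMPs. The median cell had 0 CPM in all 4 populations, and the highest had 101, 313.5, 356.01 and 172 CPM. At 100000 reads it was detected in 9 of 56 P2- and 14 of 47 P2+ MEPs. The log2 ratio was 2.16 (1.97 to 2.36) in MEPs and -0.21 (-0.37 to -0.05) in CMPs, and without the cell of highest CPM in each population it was 2.23 in MEPs and 0.24 in CMPs. In P2- CMPs 1 cell gave 41.5% of its reads, so the direction in CMPs rested on that cell.

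In the polo and Aurora A group, Plk1, a kinase of entry, spindle and cytokinesis, had 153, 116, 132 and 89.5 CPM in the 4 populations. Single cells had a median of 148, 83.6, 96.9 and 0 CPM and a highest level of 524, 526, 399 and 473 CPM, and the lowest cell of each population had 0. Its log2 ratio was -0.40 (-0.46 to -0.34) in MEPs and -0.56 (-0.64 to -0.48) in CMPs. Aurka, the Aurora kinase of the spindle poles, had 132, 65.5, 101 and 128 CPM. Its log2 ratio was -1.01 (-1.08 to -0.93) in MEPs, where its share of cells with a read was 80.4% in P2- and 48.9% in P2+ cells, and 0.34 (0.27 to 0.42) in CMPs. Tpx2, the activator of Aurora A, and Hmmr had ratios of 0.02 and -0.04 in MEPs, whose intervals include 0. In CMPs they were among the lowest, at -0.71 and -0.96. Hmmr had 117 CPM in the P2- and 60.0 CPM in the P2+ CMPs.

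The chromosomal passenger complex holds Aurora B at the centromere. Aurkb, its kinase, had 129, 79.5, 125 and 137 CPM in the 4 populations, with median cells at 97.6, 55.7, 107 and 91.9 CPM and highest cells at 560, 293.3, 358.4 and 519 CPM. Its log2 ratio was -0.69 (-0.77 to -0.62) in MEPs and 0.13 (0.06 to 0.20) in CMPs. Birc5, the subunit survivin, was read in every MEP, with 371.4 CPM in P2- and 296.7 CPM in P2+ cells, and ran against the list in CMPs at 0.27. Incenp, the scaffold of the complex, had -0.50 in MEPs and -0.62 in CMPs, the latter under 1.5-fold with equal weight for every cell (-0.45) and without the cell of highest CPM (-0.49).

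The 5 spindle checkpoint genes together had log2 ratios of -0.12 (-0.15 to -0.09) in MEPs and 0.04 (0.01 to 0.07) in CMPs. Bub3 had 271.7, 255.8, 264.1 and 295.2 CPM in the 4 populations, median cells at 290.97, 243.02, 238.7 and 243.5 CPM, and log2 ratios of -0.09 (-0.13 to -0.04) and 0.16 (0.11 to 0.21). Bub1, Bub1b and Ttk, the other kinases and pseudokinase of the checkpoint, had MEP ratios of 0.01, 0.01 and 0.09, each with an interval that includes 0. Mad2l1 was the member of this group with a larger MEP ratio, at -0.40.

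Among the genes of anaphase onset, Cdc20, the APC/C activator, had 272.04, 256.6, 180 and 187 CPM in the 4 populations. Median cells had 276.6, 170, 78.4 and 130 CPM and the highest 695, 879, 856 and 838 CPM, so MEPs were higher than CMPs in the pooled level and in the median while the cells overlapped. Between P2+ and P2- its ratio was -0.08 (-0.13 to -0.04) in MEPs and 0.06 (-0.0041 to 0.12) in CMPs. Espl1, the separase that cuts cohesin, had 78.3 CPM in the P2- and 45.2 CPM in the P2+ MEPs (log2 ratio -0.79), and 40.3 and 41.9 CPM in the CMPs. Pttg1, the securin that inhibits it, had 105, 107, 66.5 and 81.4 CPM. Ube2c had 406, 277.4, 314.5 and 286.2 CPM, with single P2+ CMPs from 0 to 1804 CPM around a median of 88.6 CPM.

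Kinetochore genes fix chromosomes to the spindle. Their summed level in CMPs was 904 CPM in P2- and 691 CPM in P2+ cells (log2 ratio -0.39, -0.42 to -0.36), and it was near equal in MEPs (-0.06). Each gene of the group was under 1.5-fold in CMPs, from -0.57 for Cenpf to 0.10 for Spc25. Ndc80, the microtubule-binding subunit, had 38.2 CPM in the P2- and 49.1 CPM in the P2+ MEPs, and 72.6 CPM in the P2- and 65.9 CPM in the P2+ CMPs. It was higher in P2+ MEPs (0.36), but 1 cell gave 23.6% of its reads there. Of the kinesins, Kif11 was lower in P2+ cells of both types, at -0.62 (-0.70 to -0.54) in MEPs and -0.69 (-0.76 to -0.61) in CMPs, with 99.5, 64.8, 148 and 92.02 CPM. In MEPs it was under 1.5-fold with equal weight for every cell (-0.37), and just under it with DESeq2 size factors (-0.56), which moved all genes by 0.06.

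Chromosome structure genes gave the most reads. Top2a had 417, 356.7, 632 and 468 CPM in the 4 populations, with median cells at 307.7, 258.01, 625 and 465 CPM. It was highest in CMPs, while its ratios of P2+ over P2- were -0.22 (-0.26 to -0.19) in MEPs and -0.43 (-0.47 to -0.40) in CMPs. Mki67, which coats mitotic chromosomes and is the usual marker of proliferation, had 557, 508, 403 and 303.6 CPM, with median cells at 499.7, 519, 295.7 and 207.8 CPM. Every P2- MEP held at least 214.3 CPM of Mki67, and the lowest cell of each other population had 0. Its ratios were -0.13 (-0.16 to -0.10) in MEPs and -0.41 (-0.45 to -0.36) in CMPs. The subunits of condensin I went different ways in MEPs, with log2 ratios of 0.43 for Ncapd2, 0.32 for Smc4, 0.09 for Smc2, 0.03 for Ncaph and -0.51 for Ncapg. Top2a and Mki67 together gave 13.6% of all member reads, and 12 members gave 53.2%.

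Cytokinesis genes held the lowest ratio. Kif20a, a kinesin of the central spindle, had 38.2 CPM in the P2- and 12.3 CPM (11.1 to 13.6) in the P2+ MEPs, against 42.1 CPM in the P2- and 42.4 CPM in the P2+ CMPs. At 100000 reads it was detected in 39 of 56 P2- and 16 of 47 P2+ MEPs, and 1 of the latter gave 24.7% of its reads. The log2 ratio was -1.63 (-1.80 to -1.46) in MEPs and 0.01 (-0.11 to 0.14) in CMPs. Of its exon bases, 29.3% overlap Cdc23 in the GENCODE annotation (M21, GRCm38), and counting was without regard to strand, so reads there count for neither gene. Anln, the actin-binding anillin of the cleavage furrow, had 60.2 CPM in the P2- and 35.3 CPM in the P2+ MEPs (-0.77). Kif23, the motor of the centralspindlin complex, had the lowest level per kilobase of exon over all cells, 4.96 RPKM (CPM per kilobase), while Ccnb2 had the highest at 133 RPKM.

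Between CMPs and MEPs the members differed in both directions. In P2- cells 6 of 47 were higher in CMPs (32.5% of all genes) and 5 of 47 lower (17.7%), and in P2+ cells 10 of 47 were higher (25.5%) and 6 of 47 lower (20%). Among the 5834 genes of like level, 19.3% were higher and 15.7% lower in P2- cells, and 13.8% were higher and 16.7% lower in P2+ cells, so the members' share of 21.3% higher in P2+ cells lay below one background and above the other. At 2-fold, 1 was higher (22.6%) and 0 lower (9.32%) in P2- cells, and 2 were higher (17%) and 1 lower (10.3%) in P2+ cells. These 2 comparisons share their populations with those of P2+ and P2-. Ccna2 had ratios of CMP over MEP of -0.59 in P2- and -0.60 in P2+ cells, and Mki67 of -0.47 and -0.74. Nusap1, a microtubule bundler, had 0.62 and 0.76, and Nuf2, the partner of Ndc80, had 0.65 and 0.59. The pooled summed cytokinesis level was higher in CMPs by 0.25 in P2- and 0.43 in P2+ cells on the log2 scale. That of anaphase onset was lower in CMPs by 0.52 and 0.20, and its median cells were lower in CMPs too. For cytokinesis the median P2- cell was lower in CMPs (274.6 CPM) than in MEPs (289.5 CPM). The median P2+ cell was higher in CMPs (255.7 CPM) than in MEPs (214.4 CPM).

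Within each population the levels of most members varied together from cell to cell. For each member, Spearman rho was taken between its CPM and the summed CPM of the other members over the cells of 1 population. The median over members was 0.39, 0.33, 0.57 and 0.65 in the 4 populations, where the median of 10964 genes with the member sum lay between 0.02 and 0.03. In CMPs all 47 members were above 0, in P2- MEPs 46 and in P2+ MEPs 44. Averaged over the 4 populations, rho was highest for Ube2c (0.78), Cenpf, a kinetochore protein of G2 (0.72), Tpx2 (0.71), Plk1 (0.69) and Hmmr (0.68). It was lowest for Ncapg (0.27), Ncaph (0.26) and Ncapd2 (0.26), all of condensin I, and for Ccnb2 (0.21) and Mad2l1 (0.15). Of the 1081 pairs of members, Plk1 and Ube2c were closest, with a mean rho of 0.72. Pairs of the same role had a median of 0.25 and pairs of different roles of 0.26.

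The genes outside the list with the highest mean rho were Kpna2 (0.69), an importin, Arhgef39 (0.62), Ckap2l (0.60), a spindle protein, Pif1 (0.58), a helicase, and Cks2 (0.58), a CDK1 subunit. They were followed by Cenpl, Tuba1c, Fam64a, Gtse1, Kif20b, Psrc1, Kif22, Hn1 and Knl1, from 0.56 to 0.49. Of these genes, Ckap2l, Cks2, Fam64a, Gtse1, Psrc1, Kif22 and Knl1 stood in the pathway lists. At the other end stood Ung (-0.69), the uracil glycosylase, Hells (-0.49), Ccne1 (-0.47), the cyclin of S phase entry, Uhrf1 (-0.46) and Cdc6 (-0.46), which loads the replicative helicase. Rfc3, Mcm2, Tipin, Ccne2 and Mcm4 followed.

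Other genes of mitosis and its control were taken from fixed lists. Of 16 genes of the MuvB, FoxM1, E2F and NF-Y regulators, 2 were higher in P2+ MEPs by 1.5-fold (12.5%, against 24.5% of all genes) and 0 lower (13.1% of all), with Lin52, a MuvB subunit, at 1.31 and Rb1 at 0.66, and Mybl2, the B-MYB factor, at -0.31 and E2f4 at -0.30. In P2+ CMPs 4 were higher and 4 lower (25% each, against 17.1% and 18.2% of all). Foxm1 itself had 35.8, 37.4, 40.8 and 39.4 CPM in the 4 populations. Of 14 entry and exit regulators, Ccnf was lowest in P2+ MEPs at -0.68, then Pkmyt1 at -0.49, and Mastl was highest at 0.48, then Plk4 at 0.46. None of 17 APC/C genes passed 1.5-fold between P2+ and P2- in either cell type, with Anapc10 at -0.56, Ube2s at -0.48, Anapc15 at 0.30 and Anapc5 at 0.37 in MEPs. Of the 10 cohesin and condensin II genes, Wapl (-0.25) and Smc1a (-0.19) were lowest and Stag2 (0.49) and Nipbl (0.32) highest in MEPs.

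Of the 35 other G2 and M genes, 3 were higher (8.57%) and 4 lower (11.4%) in P2+ MEPs, and 4 were higher and 4 lower in P2+ CMPs (11.4% each), where the shares of all genes were 24.5%, 13.1%, 17.1% and 18.2% in that order. Mxd3, a MYC-network repressor, was highest at 2.90 in MEPs, with 2.12 CPM in P2- and 15.9 CPM in P2+ cells, and Cep55 of the midbody followed at 1.28. Cdca5, the cohesion protein sororin, was lowest at -0.85, and Sgol1, which guards centromeric cohesion, had -0.72. Of the 33 S phase genes, 2 were higher (6.06%) and 1 lower (3.03%) in P2+ MEPs, against the same 24.5% and 13.1% of all genes. Hells (0.79) and Pola1 (0.77) were highest, Ccne1 (-0.57) was next to lowest, and Fen1 (-1.26) had 2.88 CPM at most in MEPs. The summed S phase level was 6832, 7178, 6236 and 7090 CPM in the 4 populations, so it was not lower in P2+ cells as the mitosis sum was.

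Summed erythroid genes were highest in MEPs and summed granulocyte and monocyte genes in CMPs. The erythroid list had 2547, 1481, 845 and 441 CPM, although Hbb-bt, an adult beta-globin gene whose reads can be shared with its near copy Hbb-bs, ran the other way with 9.51, 9.79, 232.2 and 121 CPM, and the granulocyte and monocyte list 16.3, 72.2, 476 and 745 CPM. The megakaryocytic list had 88.6, 642, 614 and 704 CPM, the endothelial list 0.098, 1.43, 27.5 and 67.5 CPM and the hepatocyte list 10.6, 10.3, 24.7 and 13.1 CPM. The stem and multipotent list had 304.9, 384, 1205 and 1570 CPM and the mast and basophil list 0.33, 2.69, 72.8 and 34.2 CPM, and the part of these lists in the results was not tested. The macrophage list had under 1 CPM in every population, with Adgre1, C1qa, C1qb and Cd5l at 0 reads, and the lymphoid list at most 3.22 CPM, with Rag1 and Il7r at 0. Reads on mouse genes ran from 295064 to 1540631 per cell.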

How the data were processed

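Single P2-hCD4-/+ MEPs and CMPs were sequenced by Smart-Seq2, without molecular identifiers and with ERCC spike-ins. The authors trimmed the reads (Trimmomatic 0.36), aligned them to GRCm38 (STAR 2.4.2a) and deposited raw counts per gene and cell on GENCODE exons, made without regard to strand (HTSeq 0.6.1p1), with an alignment table whose deposited unmapped column is the percent of a cell's reads. Of uniquely mapped reads, 25.6% were ambiguous between genes and 7.40% on no gene, and these rows stayed out of all totals. Plates were not analysed here.

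Cells with under 250000 reads, over 25% unmapped reads or over 15% ERCC reads were removed, as in the study (3 of 175). Depth was 571806 to 2827426 reads per cell. The computed values were CPM pooled over a population, with exact Poisson intervals; log2 ratios without pseudocount, with exact conditional binomial intervals; Clopper-Pearson intervals for shares; and Spearman rho over cells. PCR copies are not independent molecules, so intervals cover counting error only. The background was every gene whose mean count reached 1, and members were counted as different at 1.5-fold or more. Detection was scored on counts thinned to 100000 reads, which left out 0 cells. With 1 sample per population a replicated test could not be made. Doublets were not called. The counting intervals were tested on simulated Poisson counts with no variation between cells and no PCR copies. That test therefore cannot show how well they cover such spread in these data.

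Full values are given for Cdk1, Ccnb1, Top2a, Mki67, Plk1, Aurkb, Cdc20 and Bub3. Also named are the 5 members highest and the 5 lowest in each P2+ over P2- ratio and in mean rho, the 2 highest and 2 lowest genes in MEPs of each pathway list and the 15 other genes of highest rho, of which 1 is not reported here; any other gene was picked with its values in view. The members and lists were chosen with earlier results of these data known. Alternatives were equal weight per cell, medians, DESeq2 size factors (version 1.42.0), ERCC scaling, other denominators, cells and thinning depths. Tools were Python 3.11.15, numpy 2.4.6, scipy 1.17.1, pandas 2.3.3 and R 4.3.3.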

Additional observations from a re-analysis of the deposited data

Results flagged for a closer look

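In 3 members the ratio of P2+ over P2- cells had opposite signs in MEPs and CMPs, with both counting intervals clear of 0 and at least 1 log2 unit between them (6.38% of members, against 9.94% of 5834 genes of like level and 15.9% of all genes). For Cdk1 the MEP ratio minus the CMP ratio was -1.14, for Aurka -1.35 and for Cdc25b 2.37. For Cdc25b the opposite sign rested on 1 P2- CMP, since without the cell of highest CPM in each population the CMP ratio was 0.24. Each population is 1 pool of livers, so the difference between cell types was not tested.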

How the results depend on the processing

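No paired analysis was possible because each population is 1 sample and the labels carry no replicate numbers that pair cells. No replicate was left out for the same reason, and the cells share 1 pool. At this depth a member of low level with 0 reads in a cell was not detectable there.

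The log2 ratios of the summed level were, in the order P2+ over P2- in MEPs, P2+ over P2- in CMPs, CMP over MEP in P2- and CMP over MEP in P2+ cells, as follows. With DESeq2 size factors they were -0.11, -0.18, -0.072 and -0.14, per ERCC read -0.79, 0.12, -0.53 and 0.38, and without mitochondrial genes and Rn18s-rs5 in the denominator -0.13, -0.19, 0.041 and -0.016. As medians over cells they were -0.13, -0.33, -0.14 and -0.34, and as means over the members' own ratios -0.19, -0.19, 0.061 and 0.069. Per ERCC read the median of all genes moved by -0.62, 0.33, -0.51 and 0.43. With equal weight per cell the last 3 were -0.17, 0.0120 and 0.0124. Without Top2a they were -0.19, -0.063 and -0.087. Without the P2- CMP whose subtype label reads MEP, the CMP ratio was -0.23 and the CMP over MEP ratio in P2- cells 0.0046. The sign of CMP over MEP thus turned under several settings, and that of P2+ over P2- in CMPs per ERCC read; the cause was not tested.

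Counts of members past 1.5-fold were, at 2-fold, 2 lower in P2+ MEPs, 0 lower in P2+ CMPs, 1 higher and 0 lower in P2- CMPs against MEPs, and 2 higher and 1 lower in P2+ CMPs against MEPs. Per ERCC read they were 35 lower in P2+ MEPs, and 6 higher and 1 lower in P2+ CMPs. On that scale 1 was higher (2.13%, against 8.38% of genes of like level) and 19 lower (40.4% against 46.6%) in P2- CMPs against MEPs. In P2+ CMPs against MEPs 18 were higher (38.3% against 33.8%) and 1 lower (2.13% against 5.23%). Ratios of medians over cells were a setting chosen after seeing the data. By these ratios 22 were lower in P2+ MEPs, and 8 were higher and 13 lower in P2+ CMPs. Of P2- CMPs against MEPs, 3 were higher (6.38%, against 17.9% of genes of like level) and 16 lower (34.04% against 34.8%). Of P2+ CMPs against MEPs, 14 were higher (29.8% against 29.1%) and 10 lower (21.3% against 20.1%). With equal weight per cell 3 were lower in P2+ CMPs and 3 lower in P2- CMPs against MEPs. In P2- CMPs against MEPs 3 were higher with size factors and 3 without the cell of highest CPM.

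Spread over cells was also computed after seeing the data. Per ERCC read the coefficients of variation of both MEP populations were 0.52 and 0.65, and 2 P2- CMPs and 4 P2+ CMPs lay below the lowest MEP. Above the median of all cells, in place of the upper quartile (28.6% and 14.9%), lay 62.5% of P2- MEPs and 46.8% of P2+ MEPs. The medians of members read per cell moved by less than their intervals at 50000 and 200000 reads and without thinning.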

Other observations

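The lineage lists had no common relation to the summed mitosis level over cells. Over the erythroid list, Spearman rho was 0.16 (P2-) and 0.23 (P2+) in 56 and 47 MEPs, and -0.28 (P2-) and 0.05 (P2+) in 27 and 42 CMPs. Over the megakaryocytic list it was 0.13, -0.14, -0.20 and 0.15 in the same order. For the granulocyte and monocyte list rho was -0.05, -0.12, -0.05 and -0.34, and for the stem and multipotent list it was 0.36, 0.11, -0.03 and -0.23 over MEPs and then CMPs. All of these sums share the library and its total with the mitosis sum.

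The median coefficient of variation of a member was 0.79, 1.08, 1.08 and 1.10 in the same order, against 0.87, 1.06, 1.03 and 0.97 over 5834 genes. From P2+ MEPs to P2+ CMPs it was higher for 25 of 47 members, where 35.02% of those genes were higher. From P2- MEPs to P2- CMPs it was higher for 41 of 47 members (87.2%), where 74.8% of those genes were higher. The median ratio over members was 1.02 in P2+ and 1.28 in P2- cells, against 0.91 and 1.20 over those genes. From P2- to P2+ MEPs the coefficient was higher for 45 of 47 members (95.7%), where 82.2% of those genes were higher. From P2- to P2+ CMPs it was higher for 30 of 47 members (63.8%), where 36.8% of those genes were higher.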
